A study of Homo sapiens with 24 samples.

Results

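Non-coding snoRNA host genes are genes whose spliced RNA encodes no long protein and whose introns carry small nucleolar RNAs (snoRNAs). The rows of the read-count table whose symbol was GAS5, SNHG1, SNHG5, SNHG6, SNHG7, SNHG8, SNHG12, SNHG15, SNHG16 or ZFAS1 were taken, and all 10 were present among the 14493 genes listed. The RNA-seq data came from SKBr3, an established HER2-amplified human breast cancer cell line, in 24 libraries that formed 8 groups of 3 replicates. Proliferative cells without drug made up the untreated day-0 group and the untreated day-7 group, and the labels name no refeeding for either. The 6 therapy-induced senescence (TIS) groups had received ND-646 (an acetyl-CoA carboxylase inhibitor, 250 nmol/L), TVB-3166 (a fatty acid synthase inhibitor, 250 nmol/L), bleomycin (a DNA-breaking drug, 10 μmol/L), doxorubicin (a topoisomerase II poison, 10 nmol/L), palbociclib (a CDK4/6 inhibitor, 1 μmol/L) or alisertib (an Aurora A inhibitor, 500 nmol/L), with drug renewed on day 3 and cells collected on day 7. All 8 groups share a single parental line, and the labels do not say that replicates were separate cultures, so p-values measure only the spread between these samples.

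SnoRNAs guide the chemical modification of ribosomal RNA, box C/D snoRNAs directing 2′-O-methylation and box H/ACA snoRNAs directing pseudouridylation. Most human snoRNAs are cut out of introns while the host RNA is being spliced, and the spliced non-coding host RNA is then, in many cases, loaded on ribosomes and degraded by nonsense-mediated decay. Many hosts start with a pyrimidine-rich stretch like that of the mRNAs for ribosomal proteins (the 5′ terminal oligopyrimidine, or TOP, motif), through which translation follows mTORC1 activity, and GAS5 (growth arrest-specific 5) was named for its accumulation in growth-arrested cells.

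The hosts differ in the snoRNAs they carry. In the RefSeq gene table, GAS5 (NCBI gene 60674) encloses 11 annotated snoRNAs, 10 of them box C/D, and SNHG1 encloses 9. SNHG12 encloses 4, SNHG16 and ZFAS1 3 each, SNHG5 and SNHG7 2 each, and SNHG6, SNHG8 and SNHG15 1 each. Those of SNHG7, SNHG8 and SNHG15 are box H/ACA, SNHG12 carries 3 of that class and 1 of box C/D, and those of SNHG5, SNHG6, SNHG16 and ZFAS1 are box C/D. On GRCh37, the build to which the reads were aligned, the GENCODE annotation places GAS5 on the minus strand of chromosome 1 (173827697 to 173838020), SNHG12 on the minus strand of the same chromosome (28905050 to 28909644), SNHG1 on the minus strand of chromosome 11 (62619450 to 62623425) and SNHG15 on the minus strand of chromosome 7 (45022618 to 45026560). ZFAS1 lies on the plus strand of chromosome 20 (47894715 to 47916137), SNHG16 on the plus strand of chromosome 17 (74553809 to 74667067) and SNHG8 on the plus strand of chromosome 4 (119199858 to 119206471). SNHG7 lies on the minus strand of chromosome 9 (139615818 to 139622636) and SNHG5 on the minus strand of chromosome 6 (86360209 to 86388650).

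The start of each host was read from the GRCh37 genome at the first base shared by the largest number of its annotated transcripts, 50 of 91 for GAS5 but only 2 of 14 for SNHG15. A TOP-like start was defined as a C followed by at least 4 further bases that are C or T, beginning at most 2 bases from that first base on the strand of the gene. GAS5, SNHG6, SNHG7, SNHG8, SNHG12 and ZFAS1 had one (6 of 10), and SNHG1, SNHG5, SNHG15 and SNHG16 did not. Of 13701 genes whose start could be read, 10.1% had such a start, as had 10.4% of the lncRNA genes and 68.4% of the 79 cytosolic ribosomal protein genes. A match, or the lack of one, is a description of the annotated start and not a mapped 5′ end. For SNHG1 that start was shared by 25 of 80 transcripts, so a host without a match may still have such a motif at another start. The 41 bases centred on the start are shown for 3 hosts with a TOP-like start, which is in capitals, and for 3 hosts without one, because they span the range from the hosts that rose most to those that fell or were not called. Since they were picked by their changes, they do not show how start and change go together. SNHG6, which is not shown, has a TOP-like start of 7 bases but rose against day-0 in bleomycin cells alone when 2 groups were fitted.
GAS5, chr1:173837107-173837147, minus strand: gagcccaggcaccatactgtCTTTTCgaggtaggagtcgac
SNHG12, chr1:28908365-28908405, minus strand: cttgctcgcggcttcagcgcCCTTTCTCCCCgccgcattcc
ZFAS1, chr20:47895159-47895199, plus strand: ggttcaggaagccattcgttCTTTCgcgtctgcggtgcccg
SNHG1, chr11:62623337-62623377, minus strand: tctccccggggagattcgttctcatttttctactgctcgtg
SNHG15, chr7:45026247-45026287, minus strand: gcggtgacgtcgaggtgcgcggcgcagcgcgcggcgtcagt
SNHG16, chr17:74553828-74553868, plus strand: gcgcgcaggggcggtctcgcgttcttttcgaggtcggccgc
In SNHG1 the pyrimidines that begin at the annotated first base are broken by an A, so they were not counted. In SNHG16 the first C of a pyrimidine stretch lies 3 bases past the first base, so it was not counted either. The SNHG15 window held no run of C or T longer than 2 bases.

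Each library held between 29405121 and 44316330 counts, and the hosts had between 76 and 6519 counts per library, the fewest being those of SNHG12 (76) and SNHG5 (111), whose levels are therefore the least precise. Levels are given as CPM, the counts of a gene scaled to a common library size after TMM normalization over the 24 libraries, in the order of replicates 1, 2 and 3. All 7 markers of HER2-amplified luminal epithelium were present, with a summed level between 12591 and 22521 CPM, and of 5 fibroblast markers 1 had a row, COL1A1 (6.46 to 15.2 CPM). Of 4 leukocyte markers, 0 had a row among the 14493 genes used here. Some libraries stood apart. ND-646 replicate 1 had the lowest TMM factor (0.785) and the highest level of the 3 ND-646 libraries for 7 of the 10 hosts, and its summed ribosomal protein level was 142271 CPM against 72641 and 68142 CPM. Day-0 replicate 1, a library of 43925734 counts, had the lowest of the 3 day-0 levels for 8 hosts. The part of these libraries in the results was not tested beyond leaving them out. Bulk RNA does not distinguish fewer cells that express a gene from less RNA per cell.

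**Figure D1:**
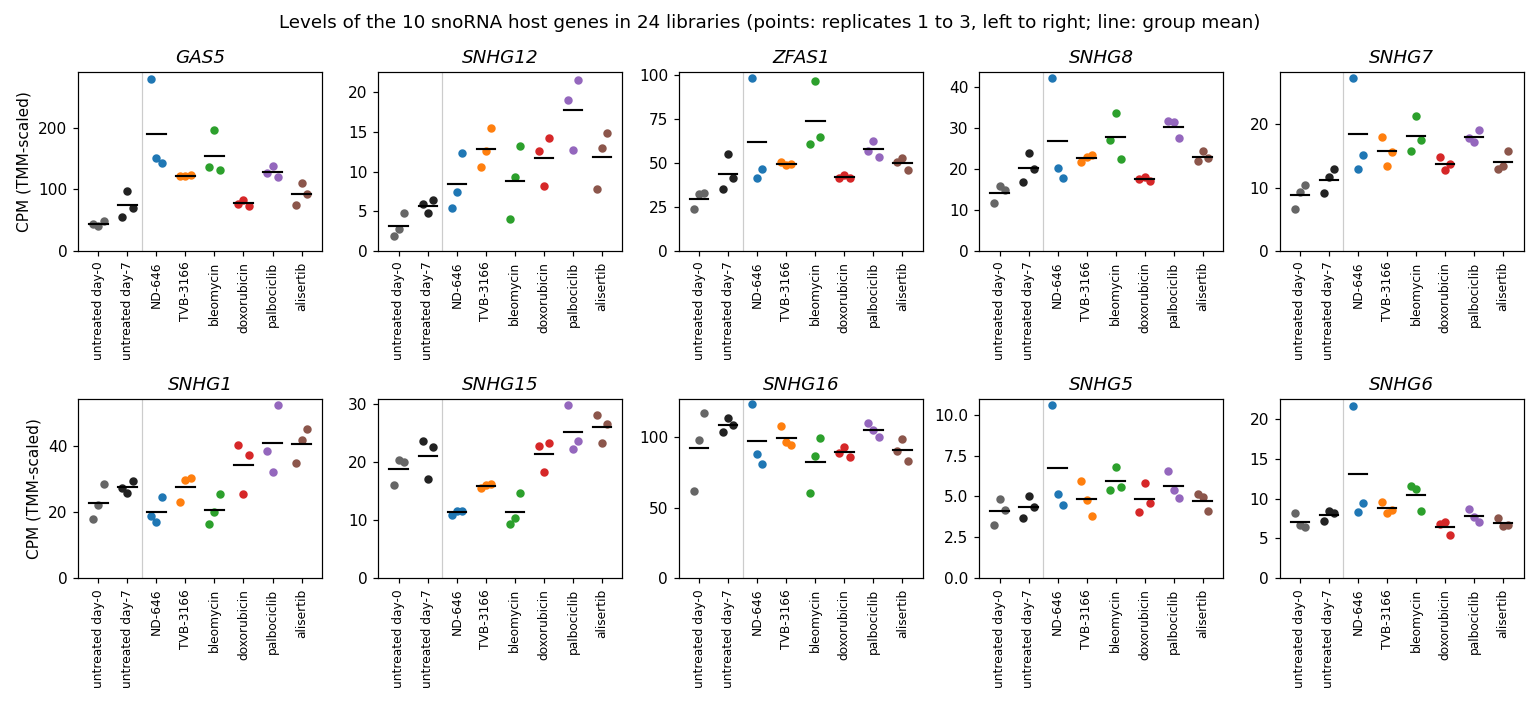
Level of each host gene (CPM, vertical axis from 0) in the 8 groups (horizontal axis), with 1 point per library and a line at the group mean. GAS5 lay between 40.6 and 47.9 CPM in day-0 cells and between 142 and 279 CPM in ND-646 cells, SNHG15 was lowest in ND-646 and bleomycin cells, and ND-646 replicate 1 stood above the other 2 ND-646 libraries for 7 hosts.

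Per kilobase of the median annotated transcript, GAS5 had the highest mean level over the 24 libraries (152 CPM per kilobase), followed by ZFAS1 (74.6), SNHG8 (46.6) and SNHG16 (38.9). SNHG1 (22.4), SNHG15 (17.98), SNHG6 (16.5), SNHG7 (12.7) and SNHG12 (9.29) were lower, and SNHG5 was lowest (4.65). The range over libraries was widest for SNHG12, whose highest library was 11.2 times its lowest, and narrowest for SNHG16, at 2.04 times.

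The first question was how many hosts differed in TIS cells from untreated day-0 cells, and in which direction. A gene was called at an adjusted p under 0.05 at any fold-change. In ND-646 cells 5 of 10 hosts rose, where 19.1% of all genes tested did, and 1 fell, where 18.8% did. In TVB-3166 cells 5 rose (27.4% of all genes) and 0 fell (27.7%). In bleomycin cells 6 rose (24.1%) and 1 fell (25.3%). In doxorubicin cells 5 rose (23.7%) and 0 fell (24.8%), in palbociclib cells 7 rose (26%) and 0 fell (27.2%), and in alisertib cells 7 rose (17.7%) and 0 fell (19.6%). GAS5, SNHG7, SNHG12 and ZFAS1 were among those that rose in each of the 6 TIS groups, and SNHG8 rose in 5. These comparisons share the day-0 libraries and are therefore not independent of one another. With library totals in place of TMM the median of all genes moved by more than 0.1 in ND-646 (to -0.09), doxorubicin (to 0.12), palbociclib (to 0.12) and alisertib cells (to 0.13), and the genes called higher and lower were 1892 and 2959 in place of 2605 and 2552, 3850 and 2466 in place of 3268 and 3418, 4319 and 2664 in place of 3577 and 3741, and 3195 and 1398 in place of 2438 and 2697. The median log2 fold-change of the 10 hosts was 0.88 in ND-646, 0.50 in TVB-3166, 0.76 in bleomycin and 0.43 in doxorubicin cells, and it was 0.90 in palbociclib and 0.70 in alisertib cells, beside medians of all genes between -0.01 and 0.02. Over all rows with the biotype lncRNA, a set added after the values were seen, the medians lay between 0.27 (alisertib) and 0.49 (TVB-3166). Without ND-646 replicate 1, the median of the hosts in ND-646 cells was 0.37, with 5 risen and 1 fallen as before. Without day-0 replicate 1 or without day-0 replicate 2, only 2 hosts were called in ND-646 cells, and without day-0 replicate 2 only 4 in bleomycin cells. The doxorubicin count fell to 3 without doxorubicin replicate 1. For the fits with 1 library left out the shares of all genes called are not given, and the shares above are no background for their counts.

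By the criterion of a 2-fold change with a raw p under 0.05, fewer hosts were counted. Against day-0 these were 4 in ND-646 (20.7% of all genes), 2 in TVB-3166 (17.6%), 4 in bleomycin (18.8%), 4 in palbociclib (16.7%), 2 in alisertib (7.9%) and 1 in doxorubicin cells (12.9%). Against the day-7 cells, 1 host met it under each drug, GAS5 in ND-646 (17.4% of all genes) and bleomycin cells (14.1%), and SNHG12 in TVB-3166 (13.4%), doxorubicin (8.77%), palbociclib (11.2%) and alisertib cells (3.27%).

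Passage in culture was addressed by the untreated day-7 cells. Their labels name no refeeding, whereas those of the 6 TIS groups name one on day 3. Drug and refeeding therefore cannot be told apart in comparisons with day-7 cells. Against day-0, 0 of 10 hosts rose and 0 fell, where 0.389% and 0.198% of all genes did. All 10 hosts had a positive log2 fold-change, from 0.11 (SNHG5) to 0.89 (SNHG12), as had 7009 of 13636 genes and 514 of 745 lncRNA rows tested. Of the hosts, 4 had a raw p under 0.05, as had 23.9% of all genes. DESeq2 called 4 hosts, and so did a fit with the replicate number as a block. Both counts are given without the share of all genes called. Day-7 cells were therefore used as a second reference. Against them, 1 host rose and 1 fell in ND-646 cells (17.2% and 17.1% of all genes), 3 rose and 1 fell in TVB-3166 cells (25.4% and 26.1%), and 3 rose and 1 fell in bleomycin cells (22.4% and 23.2%). In doxorubicin cells 1 rose and 1 fell (21.9% and 21.5%), in palbociclib cells 6 rose and 0 fell (22% and 22.9%), and in alisertib cells 2 rose and 0 fell (9.55% and 9.49%). Libraries with the same replicate number deviated together in the bleomycin and alisertib comparisons with day-7, and with the replicate number as a block the counts of called hosts were 7 for bleomycin and 6 for alisertib. The shares of all genes called with the block are not given here, and the shares above, from the fits without it, are no background for these counts. The block added SNHG1 (-0.42, adjusted p = 0.0311), SNHG8 (0.46, adjusted p = 0.0224) and SNHG16 (-0.42, adjusted p = 0.0295) for bleomycin. For alisertib it added GAS5 (0.35, adjusted p = 0.00293), SNHG7 (0.35, adjusted p = 0.0256), SNHG15 (0.33, adjusted p = 0.0128) and SNHG16 (-0.25, adjusted p = 0.0148). In these bleomycin and alisertib comparisons the fit with the block allows for the shared deviation, and the counts without it do not. In a fit of all 24 libraries without the block, 0 hosts were called in alisertib cells against day-7, so this count depended on the model. Calls against day-7 for single hosts are given without the block unless stated. Without ND-646 replicate 1 the ND-646 count was 5. It was 2 for TVB-3166 without TVB-3166 replicate 1, TVB-3166 replicate 3 or day-7 replicate 1, 8 for bleomycin without bleomycin replicate 3, 1 for doxorubicin without doxorubicin replicate 1, and 4 for alisertib without day-7 replicate 2. The shares of all genes called in these fits are not given either, so these counts are no result about the hosts.

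**Figure D2:**
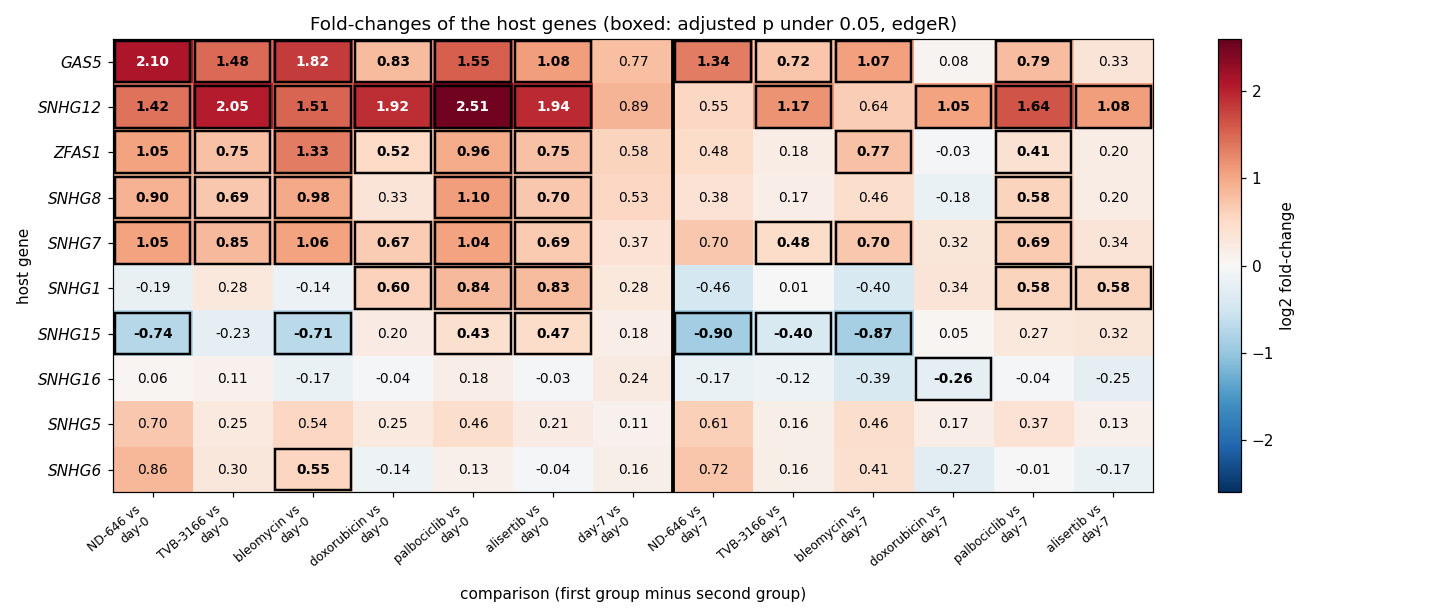
Log2 fold-change of each host (rows) in each comparison (columns), with red for higher and blue for lower in the first group, and boxes at an adjusted p under 0.05 (edgeR). GAS5 and SNHG12 are boxed in all 6 comparisons of TIS cells with day-0 (0.83 to 2.098 and 1.42 to 2.51), whereas SNHG15 is blue for ND-646 and bleomycin and red for palbociclib and alisertib.

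GAS5, the host of the most box C/D snoRNAs here, was lowest in day-0 cells and highest in ND-646 cells. Its levels were 43.5, 40.6 and 47.9 CPM in day-0 cells, 55.9, 97.9 and 70.4 in day-7 cells, 279, 151 and 142 in ND-646 cells and 122, 122 and 124 in TVB-3166 cells. They were 136, 197 and 131 CPM in bleomycin cells, 76.7, 83.1 and 72.7 in doxorubicin cells, 127, 139 and 120 in palbociclib cells and 75.2, 111 and 92.9 in alisertib cells. Every TIS library lay above every day-0 library, while the doxorubicin and alisertib libraries overlapped those of day-7. Against day-0 the log2 fold-change was 2.098 ± 0.26 (SE) for ND-646 (adjusted p = 0.000402), 1.82 ± 0.17 for bleomycin (adjusted p = 5.89e-05) and 1.48 ± 0.10 for TVB-3166 (adjusted p = 7.96e-07). It was 1.55 ± 0.10 for palbociclib, 1.08 ± 0.14 for alisertib and 0.83 ± 0.10 for doxorubicin, the smallest of the 6 (adjusted p = 0.000132). Against day-7 it remained called for ND-646 (1.34 ± 0.30, adjusted p = 0.00962), bleomycin (1.07 ± 0.21, adjusted p = 0.00366), palbociclib (0.79 ± 0.16, adjusted p = 0.0021) and TVB-3166 (0.72 ± 0.16, adjusted p = 0.0027). It was not called for doxorubicin (0.08 ± 0.16, adjusted p = 0.716), and for alisertib (0.33 ± 0.18, adjusted p = 0.223) it was called only with the replicate block (adjusted p = 0.00293). Without ND-646 replicate 1 the ND-646 value against day-0 was 1.73 and still called.

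In one fit of all 24 libraries the TIS groups were also compared with each other. ND-646 cells had more GAS5 than doxorubicin cells by 1.299 ± 0.22 on the log2 scale (adjusted p = 6.21e-05) and more than alisertib cells by 1.03 ± 0.22 (adjusted p = 0.000556). Bleomycin cells had more than doxorubicin cells by 1.00 ± 0.22 (adjusted p = 0.00368). In the order of the group means (day-0, day-7, doxorubicin, alisertib, TVB-3166, palbociclib, bleomycin, ND-646) none of the 7 pairs of neighbours differed at an adjusted p under 0.05, the nearest being day-7 and day-0 (0.76 ± 0.22, adjusted p = 0.056), although 17 of all 28 pairs of groups did.

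SNHG12, which carries snoRNAs of both classes, had the largest fold-change against day-0 of the 10 hosts in 4 of the 6 TIS groups (TVB-3166, doxorubicin, palbociclib and alisertib). Its levels were 1.93, 2.72 and 4.73 CPM in day-0 cells, 5.97, 4.81 and 6.41 in day-7 cells, 5.397, 7.499 and 12.3 in ND-646 cells and 10.5, 12.6 and 15.5 in TVB-3166 cells. In bleomycin cells they were 3.9997, 9.33 and 13.3 CPM, in doxorubicin cells 12.6, 8.21 and 14.3, in palbociclib cells 19.01, 12.7 and 21.6 and in alisertib cells 7.83, 13.1 and 14.9. Of the TIS groups only bleomycin overlapped day-0, by 1 library, and replicate 3 was the highest library in each of the 8 groups. Against day-0 the log2 fold-change was 2.51 ± 0.31 for palbociclib (adjusted p = 8.44e-05), 2.05 ± 0.28 for TVB-3166 (adjusted p = 0.000125), 1.94 ± 0.32 for alisertib (adjusted p = 0.0016) and 1.92 ± 0.31 for doxorubicin (adjusted p = 0.000885). The values for bleomycin (1.51 ± 0.44, adjusted p = 0.0175) and ND-646 (1.42 ± 0.40, adjusted p = 0.0223) were called but had the widest errors. Both calls were lost without day-0 replicate 1 (1.25 and 1.16) or day-0 replicate 2 (1.42 and 1.32), the bleomycin call also without bleomycin replicate 3 (1.0999) and the ND-646 call also without ND-646 replicate 3 (1.03). Against day-7, SNHG12 rose in palbociclib (1.64 ± 0.20, adjusted p = 7.8e-05), TVB-3166 (1.17 ± 0.17, adjusted p = 0.000214), alisertib (1.08 ± 0.22, adjusted p = 0.00807) and doxorubicin cells (1.05 ± 0.20, adjusted p = 0.00122), and was not called in ND-646 or bleomycin cells. The alisertib call was lost in the fit of all libraries (1.06). The direct comparison put palbociclib above ND-646 by 1.08 ± 0.37 (adjusted p = 0.0218) and above bleomycin by 1.001 ± 0.36 (adjusted p = 0.0401).

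ZFAS1, SNHG7 and SNHG8, which carry box C/D (ZFAS1) or box H/ACA snoRNAs (the other two), rose by smaller amounts. The levels of ZFAS1 were 23.7, 32.4 and 32.9 CPM in day-0 cells, 35.1, 55.1 and 41.6 in day-7 cells, 98.3, 41.3 and 46.5 in ND-646 cells and 50.5, 49.1 and 49.7 in TVB-3166 cells. They were 60.7, 96.7 and 65.01 CPM in bleomycin, 41.9, 43.4 and 41.4 in doxorubicin, 57.2, 62.8 and 53.7 in palbociclib and 50.9, 53.2 and 45.95 in alisertib cells. No TIS library of ZFAS1 fell within the day-0 range, and ND-646 replicate 1 and bleomycin replicate 2 stood above all other libraries. The log2 fold-change against day-0 was highest for bleomycin (1.33 ± 0.20, adjusted p = 0.000599), followed by ND-646 (1.05 ± 0.31, adjusted p = 0.0285) and palbociclib (0.96 ± 0.13, adjusted p = 0.000179), and was lowest for doxorubicin (0.52 ± 0.13, adjusted p = 0.00793). The ND-646 call was lost without day-0 replicate 1 (0.90), replicate 2 (1.11) or replicate 3 (1.12), and without ND-646 replicate 1 the value was 0.56 and called. The doxorubicin call was lost in the fit of all libraries (0.51). Against day-7, ZFAS1 was called in bleomycin (0.77 ± 0.21, adjusted p = 0.0139) and palbociclib cells (0.41 ± 0.14, adjusted p = 0.0348). The first of these was lost without day-7 replicate 1 (0.63) or replicate 3 (0.73), and the second without any 1 palbociclib library (0.36 to 0.45), without day-7 replicate 1 (0.27) or 3 (0.37), or in the fit of all libraries (0.40).

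SNHG8 was measured at 11.8, 15.8 and 14.8 CPM in day-0 cells, 16.8, 23.97 and 20.1 in day-7 cells, 42.1, 20.3 and 17.8 in ND-646 cells and 21.8, 22.8 and 23.5 in TVB-3166 cells. The bleomycin libraries had 27.1, 33.6 and 22.3 CPM, those of doxorubicin 17.6, 18.1 and 17.1, of palbociclib 31.6, 31.4 and 27.6 and of alisertib 22.002, 24.3 and 22.7. All TIS libraries again lay above the day-0 libraries, but the doxorubicin difference was not called (log2 fold-change 0.33 ± 0.13, adjusted p = 0.0619). Palbociclib gave the highest value (1.096 ± 0.13, adjusted p = 8.07e-05) and SNHG8 also rose there against day-7 (0.58 ± 0.13, adjusted p = 0.00335), as it did in bleomycin cells with the replicate block (0.46, adjusted p = 0.0224). The ND-646 call (0.90 ± 0.31, adjusted p = 0.0471) was lost in 6 of 13 alternatives, namely without any one of the day-0 libraries (0.78 to 0.98), with the replicate block (0.80), without a filter (0.89) and with library totals in place of TMM (0.74). Without ND-646 replicate 1 it was 0.43 and called.

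SNHG7 rose in all 6 TIS groups against day-0, from 8.79 ± 2.004 CPM (mean ± SD, n = 3) in day-0 cells to 18.5 ± 7.703 in ND-646, 18.2 ± 2.801 in bleomycin, 18.1 ± 0.973 in palbociclib, 15.7 ± 2.26 in TVB-3166, 14.1 ± 1.52 in alisertib and 13.8 ± 1.05 in doxorubicin cells. The highest day-0 library (10.4 CPM) was below the lowest TIS library (12.8 CPM). The log2 fold-changes ran from 0.67 ± 0.18 (doxorubicin, adjusted p = 0.0107) to 1.06 ± 0.20 (bleomycin, adjusted p = 0.00228). Against day-7 SNHG7 was called in palbociclib (0.69 ± 0.14, adjusted p = 0.00187), bleomycin (0.70 ± 0.17, adjusted p = 0.00898) and TVB-3166 cells (0.48 ± 0.15, adjusted p = 0.0213), and with the replicate block in alisertib cells (0.35, adjusted p = 0.0256). In the fit of all libraries it was also called in ND-646 cells (0.71 ± 0.21, adjusted p = 0.00872). The TVB-3166 call was lost without TVB-3166 replicate 1 (0.37), TVB-3166 replicate 3 (0.49) or day-7 replicate 1 (0.35), with library totals in place of TMM (0.39) and in the fit of all libraries (0.48). Of the calls against day-0, that for ND-646 was lost without day-0 replicate 1 (0.88) or replicate 2 (1.096), that for doxorubicin without doxorubicin replicate 1 (0.60) and that for alisertib without alisertib replicate 3 (0.59).

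SNHG6 has a TOP-like start but was called against day-0 in bleomycin cells alone when 2 groups were fitted, and in ND-646 cells alone in the fit of all libraries. Its levels were 8.26, 6.74 and 6.39 CPM in day-0, 7.17, 8.396 and 8.16 in day-7, 21.7, 8.36 and 9.41 in ND-646 and 11.6, 11.2 and 8.45 in bleomycin cells. The other 4 TIS groups had means from 6.44 (doxorubicin) to 8.79 CPM (TVB-3166), with libraries that overlapped day-0. The bleomycin log2 fold-change was 0.55 ± 0.19 (adjusted p = 0.0347) and was lost without day-0 replicate 2 (0.51) or 3 (0.48), without bleomycin replicate 1 (0.47) or 2 (0.49) and in the fit of all libraries (0.55). The ND-646 value was larger but not called (0.86 ± 0.35, adjusted p = 0.0798), with replicate 1 at 21.7 CPM and the other 2 libraries at 8.36 and 9.41. In the fit of all libraries it was called against day-0 (0.88 ± 0.24, adjusted p = 0.00412) and against day-7 (0.73 ± 0.24, adjusted p = 0.0154).

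SNHG1 and SNHG15, which had no match to the TOP-like definition at the annotated start that was read, separated the drugs. SNHG1, the host of the second largest number of box C/D snoRNAs, had 17.9, 22.2 and 28.3 CPM in day-0 cells, 27.3, 25.8 and 29.3 in day-7 cells, 18.7, 16.9 and 24.6 in ND-646 cells and 23.05, 29.7 and 30.3 in TVB-3166 cells. Bleomycin cells had 16.5, 19.99 and 25.3 CPM, doxorubicin cells 40.3, 25.5 and 37.1, palbociclib cells 38.3, 32.1 and 52.2 and alisertib cells 34.7, 41.7 and 45.1. All palbociclib and alisertib libraries were above all untreated libraries, and the ND-646 and bleomycin libraries were below all day-7 libraries. SNHG1 rose against day-0 in palbociclib (0.84 ± 0.20, adjusted p = 0.00465), alisertib (0.83 ± 0.16, adjusted p = 0.00346) and doxorubicin cells (0.60 ± 0.20, adjusted p = 0.0275). The doxorubicin call was lost without day-0 replicate 1 (0.45) or 2 (0.58) and without doxorubicin replicate 1 (0.46) or 3 (0.55). Against day-7 the rise was called in palbociclib (0.58 ± 0.16, adjusted p = 0.0103) and alisertib cells (0.58 ± 0.11, adjusted p = 0.00521), while the lower values in ND-646 (-0.46 ± 0.17, adjusted p = 0.0674) and bleomycin cells (-0.40 ± 0.16, adjusted p = 0.0608) were not. With the replicate block the bleomycin value was called (-0.42, adjusted p = 0.0311). Compared directly, SNHG1 was higher in palbociclib than in ND-646 cells by 1.02 ± 0.21 (adjusted p = 0.000459) and than in bleomycin cells by 0.99 ± 0.21 (adjusted p = 0.00105), and higher in alisertib than in TVB-3166 cells by 0.55 ± 0.21 (adjusted p = 0.0495). In that fit of all libraries the alisertib call against day-7 was lost (0.56).

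SNHG15, the host of a single box H/ACA snoRNA, was the host with calls in both directions when 2 groups were fitted without the replicate block. With the block SNHG1 also had both against day-7, lower in bleomycin (-0.42, adjusted p = 0.0311) and higher in alisertib cells (0.57, adjusted p = 0.000424). Day-0 cells had 16.1, 20.4 and 20.1 CPM, day-7 cells 23.6, 17.1 and 22.7, ND-646 cells 10.9, 11.7 and 11.6 and TVB-3166 cells 15.6, 16.04 and 16.3. In bleomycin cells the levels were 9.38, 10.4 and 14.8 CPM, in doxorubicin cells 22.8, 18.3 and 23.4, in palbociclib cells 29.9, 22.4 and 23.7 and in alisertib cells 28.2, 23.4 and 26.6. ND-646 and bleomycin libraries were all below the untreated libraries, TVB-3166 libraries were below those of day-7, and the palbociclib and alisertib libraries were above those of day-0. Against day-0, SNHG15 fell in ND-646 (-0.74 ± 0.17, adjusted p = 0.00848) and bleomycin cells (-0.71 ± 0.19, adjusted p = 0.0133) and rose in alisertib (0.47 ± 0.12, adjusted p = 0.0139) and palbociclib cells (0.43 ± 0.15, adjusted p = 0.0303). The bleomycin call was lost without day-0 replicate 2 (-0.65), the palbociclib call without day-0 replicate 1 (0.33) or palbociclib replicate 1 (0.28), and the alisertib call without alisertib replicate 1 (0.41) or 3 (0.45). Against day-7, SNHG15 fell in ND-646 (-0.90 ± 0.17, adjusted p = 0.00454), bleomycin (-0.87 ± 0.20, adjusted p = 0.00681) and TVB-3166 cells (-0.40 ± 0.13, adjusted p = 0.0226), the last lost without any TVB-3166 library (-0.42 to -0.39) or without day-7 replicate 1 (-0.31) or 3 (-0.35). The rises in palbociclib and alisertib cells were not called against day-7 (adjusted p = 0.165 and 0.106), but with the replicate block the alisertib rise was (0.33, adjusted p = 0.0128). Of the 15 pairs of drugs, 10 differed in SNHG15 at an adjusted p under 0.05, the most of any host, and only 1 pair of neighbours in the order of the means did, bleomycin and TVB-3166 (0.47 ± 0.16, adjusted p = 0.0328).

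SNHG16 and SNHG5, both hosts of box C/D snoRNAs without a TOP-like match at the annotated start that was read, showed no call against day-0. SNHG16 is abundant, with 61.95, 98.2 and 117 CPM in day-0 cells, 104, 113 and 109 in day-7 cells, 124, 87.7 and 80.8 in ND-646 cells and 60.7, 86.4 and 99.2 in bleomycin cells, and group means between 82.1 and 109 CPM. Its log2 fold-changes against day-0 lay between -0.17 ± 0.24 (bleomycin) and 0.18 ± 0.18 (palbociclib), with day-0 libraries that themselves spanned 61.95 to 117 CPM. Against the tighter day-7 libraries it fell in doxorubicin cells (-0.26 ± 0.08, adjusted p = 0.0164), a call lost without doxorubicin replicate 1 (-0.26) and in the fit of all libraries (-0.29), where none of the 28 pairs of groups differed. With the replicate block SNHG16 also fell against day-7 in bleomycin (-0.42, adjusted p = 0.0295) and alisertib cells (-0.25, adjusted p = 0.0148). SNHG5 had the lowest level per kilobase, with group means from 4.09 ± 0.818 CPM in day-0 cells to 6.75 ± 3.34 in ND-646 cells, where replicate 1 had 10.6 CPM against 5.17 and 4.49. Its bleomycin and palbociclib libraries lay above those of day-0, but neither difference was called (0.54 ± 0.22, adjusted p = 0.0681, and 0.46 ± 0.21, adjusted p = 0.0855). In the fit of all libraries ND-646 cells had more SNHG5 than day-0 cells (0.72 ± 0.26, adjusted p = 0.0226) and day-7 cells (0.62 ± 0.26, adjusted p = 0.0485).

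ND-646 and TVB-3166 inhibit consecutive enzymes of fatty acid synthesis and were given at the same dose and for the same time. Between them, 0 of 10 hosts rose and 0 fell, where 0.52% and 0.198% of all genes did, and 3 hosts had a raw p under 0.05, as had 15.1% of all genes. SNHG15 was higher in TVB-3166 cells in all 3 libraries (0.49 ± 0.13, adjusted p = 0.133), and GAS5 was lower in all 3 (-0.62 ± 0.25, adjusted p = 0.292). Without ND-646 replicate 1, and also with DESeq2, 1 host was called, counts given without the shares of all genes called. With the replicate block the lowest adjusted p was 0.106 (SNHG12), so no host was called. A p above the threshold does not show that the hosts had equal levels under the 2 inhibitors.

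When the hosts were divided by the match at the annotated start, those with a TOP-like start had the higher median against day-0 in each TIS group. The hosts without a match may still have such a motif at another start. Against day-0 the median log2 fold-change of the 6 hosts with such a start was 1.05 in ND-646, 0.80 in TVB-3166, 1.19 in bleomycin, 1.07 in palbociclib, 0.73 in alisertib and 0.60 in doxorubicin cells. The corresponding medians of the other 4 hosts were -0.07, 0.18, -0.15, 0.44, 0.34 and 0.23. Against day-7 the order was the other way in doxorubicin cells (0.02 and 0.11). This division was made after the values were seen and is given as a description without a test. With TMM, ribosomal protein genes, which have such a start more often, fell in larger shares than all genes in 3 of the 6 TIS groups. Of 79, 73 fell in doxorubicin (92.4%, against 24.8% of all genes), 54 in alisertib (68.4%, against 19.6%) and 36 in palbociclib cells (45.6%, against 27.2%). In TVB-3166 cells 18 fell (22.8%, against 27.7%) and in bleomycin cells 8 (10.1%, against 25.3%), and the medians in these 5 groups ran from -0.53 (doxorubicin) to -0.03 (bleomycin). With library totals in place of TMM the numbers that fell in doxorubicin, alisertib, palbociclib, TVB-3166 and bleomycin cells were 60, 17, 12, 18 and 9. In the same order, 2466 of 13804, 1398 of 13765, 2664 of 13746, 3528 of 13686 and 3356 of 13743 genes fell. With that scaling the share in palbociclib cells was below that of all genes. In ND-646 cells 3 rose and 0 fell at a median of 0.51, which was 0.07 with 3 risen and 9 fallen without ND-646 replicate 1. Without any 1 of the day-0 libraries none rose in ND-646 cells, and in the fit of all libraries 44 did. The shares of all genes called in these fits are not given here.

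Among the proteins that bind and process snoRNAs, several fell and none rose against day-0, where between 18.8% (ND-646) and 27.7% (TVB-3166) of all genes fell. Of the 4 core proteins of box C/D particles, 4 fell in TVB-3166 and in bleomycin cells, 3 in doxorubicin, palbociclib and alisertib cells and 2 in ND-646 cells, and none rose. FBL, the 2′-O-methyltransferase, fell most in TVB-3166 cells (-1.08 ± 0.10, adjusted p = 5.56e-06), while NOP56 fell in ND-646 (-0.87 ± 0.15, adjusted p = 0.00223) and TVB-3166 cells and had 0.01 ± 0.11 in alisertib cells (adjusted p = 0.97). Of the 4 box H/ACA proteins, 4 fell in bleomycin cells, 3 in TVB-3166, doxorubicin, palbociclib and alisertib cells and 1 in ND-646 cells, with DKC1, the pseudouridine synthase, at -0.76 ± 0.09 in TVB-3166 cells (adjusted p = 4.71e-05). Among 11 assembly factors between 4 (alisertib) and 8 (TVB-3166) fell and none rose, and NOLC1, a nucleolar chaperone, had the largest fall in ND-646 cells (-1.05 ± 0.16, adjusted p = 0.00113). The directions of these 3 medians against day-0 were the same in the 6 TIS groups with RLE size factors and with library totals.

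Nonsense-mediated decay factors, which degrade spliced host RNA, were mixed. Of 15, 4 fell in ND-646, bleomycin and doxorubicin cells (26.7%, against 18.8%, 25.3% and 24.8% of all genes), 6 in palbociclib and alisertib cells (40%, against 27.2% and 19.6%) and 7 in TVB-3166 cells (46.7%, against 27.7%). At most 2 rose, and with library totals in place of TMM the median turned positive in doxorubicin, palbociclib and alisertib cells. MAGOHB, an exon junction protein, fell in all 6 groups, most in palbociclib cells (-1.26 ± 0.14, adjusted p = 5.71e-05), and UPF3B fell most in ND-646 cells (-1.11 ± 0.21, adjusted p = 0.00376). In the list for TOP mRNA translation and mTORC1, of 16 genes 4 or 5 rose (25% to 31.25%) and 2 to 5 fell (12.5% to 31.25%) in each group. Of all genes, 17.7% to 27.4% rose and 18.8% to 27.7% fell. The median of this list in ND-646 cells (0.02) turned negative with library totals (-0.07). DDIT4, an inhibitor of mTORC1, rose in all 6 groups, from 1.05 ± 0.32 in doxorubicin (adjusted p = 0.0211) to 3.004 ± 0.36 in ND-646 cells (adjusted p = 0.000372), as did DEPTOR, another mTOR inhibitor (1.42 ± 0.17 in ND-646 cells, adjusted p = 0.000378). All 6 proliferation markers fell in every TIS group except alisertib, where 5 did, with MKI67 at -3.705 ± 0.40 in ND-646 (adjusted p = 0.000197) and -1.15 ± 0.28 in alisertib cells (adjusted p = 0.00918).

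Other snoRNA hosts moved in both directions. Of 20 further non-coding hosts 17 were in the table and 15 or 16 were tested. In each TIS group 3 to 6 rose (18.75% to 40%) and 2 to 6 fell (13.3% to 37.5%) against day-0. Of all genes, 17.7% to 27.4% rose and 18.8% to 27.7% fell. The medians of these hosts lay between -0.16 and 0.15, that in alisertib cells (-0.03) turning positive with library totals (0.10). The share that rose was highest in palbociclib cells, with 6 of 15 against day-0 (26.0% of all genes) and 5 of 16, with 0 fallen and a median of 0.33, against day-7 (22.0% of all genes). In the other 5 TIS groups 0 to 2 rose and 1 to 5 fell against day-7, where 9.55% to 25.4% of all genes rose and 9.49% to 26.1% fell. SNHG19 fell in bleomycin (-1.703 ± 0.25, adjusted p = 0.000528) and 4 further TIS groups, and SNHG4 rose in palbociclib cells (1.73 ± 0.28, adjusted p = 0.00044) and doxorubicin cells (1.22 ± 0.29, adjusted p = 0.00601). Of 24 protein-coding hosts outside the ribosome, 2 to 5 rose and 8 to 16 fell (33.3% to 66.7%, where 18.8% to 27.7% of all genes fell). This list includes NOP56 and DKC1, which are also counted among the snoRNP proteins above. EIF4A2, an RNA helicase whose introns carry snoRNAs, rose in all 6 groups, from 0.82 ± 0.11 in doxorubicin (adjusted p = 0.000244) to 1.33 ± 0.11 in TVB-3166 cells (adjusted p = 2.7e-06), whereas HSPA8 fell in all 6, most in bleomycin cells (-0.91 ± 0.13, adjusted p = 0.000563).

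Reads assigned to the hosted snoRNAs themselves were few. Of 37 snoRNAs annotated inside the 10 hosts 32 had a row, and the table holds no 0: 4 of these rows were at 1 in every library, so that a count of 1 cannot be told from none. Poly(A) or long-RNA libraries retain few RNAs as short as snoRNAs, and reads over a snoRNA may come from unspliced host RNA. Only 7 to 15 of the rows passed the filter on low counts in a comparison, and a row that passes only through the group where it is high is bound to differ, so the rows are described by sums over all of them and their single tests are not counted. The 10 rows inside GAS5 summed to 78, 68 and 153 counts in day-0 cells, 67, 212 and 252 in ND-646, 64, 179 and 280 in bleomycin, 390, 185 and 318 in doxorubicin and 374, 246 and 477 in palbociclib cells. As CPM these were 1.98, 2.17 and 4.53 in day-0, 2.87, 7.61 and 8.85 in ND-646, 2.15, 5.72 and 8.54 in bleomycin, 9.09, 5.27 and 9.61 in doxorubicin and 10.8, 7.81 and 14.3 in palbociclib cells. Day-7 cells had 5.34, 3.59 and 5.08 CPM, TVB-3166 cells 6.89, 7.50 and 8.60 and alisertib cells 7.29, 6.72 and 8.73. The mean was highest in palbociclib cells (10.97 CPM), whereas GAS5 itself was highest in ND-646 cells, where these rows had a mean of 6.44 CPM.

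The ratio of these sums to the level of GAS5 itself varied between libraries of a group. It was 4.56, 5.35 and 9.44% in day-0 cells, 1.03, 5.05 and 6.21% in ND-646 cells, 1.58, 2.901 and 6.4995% in bleomycin cells and 11.8, 6.35 and 13.2% in doxorubicin cells. Day-7 cells had 9.54, 3.67 and 7.21% and TVB-3166 cells 5.63, 6.15 and 6.95%. Palbociclib cells had 8.50, 5.63 and 11.9% and alisertib cells 9.69, 6.05 and 9.40%. ND-646 replicate 1, with the highest GAS5 level of all libraries, had the lowest ratio of all, and bleomycin replicate 1 the next lowest. For the 8 rows inside SNHG1 the sums were 1.35, 1.18 and 2.66 CPM in day-0 cells and 3.11, 2.14 and 3.06 in day-7 cells. They were 1.499, 2.26 and 3.09 CPM in ND-646, 2.68, 3.35 and 3.53 in TVB-3166 and 1.08, 2.11 and 2.87 in bleomycin cells. Doxorubicin cells had 4.59, 2.77 and 4.75 CPM, palbociclib cells 4.896, 2.86 and 5.71 and alisertib cells 3.17, 3.67 and 4.12. All TVB-3166, doxorubicin, palbociclib and alisertib libraries lay above all day-0 libraries. Of these drugs only alisertib had no library within the day-7 range. The 4 rows inside SNHG12 summed to 8, 11 and 16 counts in day-0 cells and 34, 20 and 40 in palbociclib cells, and the 2 inside ZFAS1 to 9, 4 and 7 and 20, 8 and 22. The rows inside each of SNHG5, SNHG6, SNHG7, SNHG8, SNHG15 and SNHG16 summed to at most 25 counts in any library.

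Some genes that overlap a host, or start within 2000 bases of it on the other strand, were examined because the use of strand in counting is not stated, so reads of overlapping genes cannot be fully told apart. ZBTB37 starts 93 bases from GAS5 on the opposite strand and rose against day-0 in 5 TIS groups, most in bleomycin cells (1.397 ± 0.20, adjusted p = 0.000478), but in ND-646 cells its levels of 9.51, 21.7 and 22.7 CPM were lowest in the library where GAS5 was highest. GAS5-AS1 lay between 0.0605 and 0.642 CPM in all libraries. ZNFX1, a helicase gene that starts 216 bases from ZFAS1 on the other strand, rose in 5 of the 6 TIS groups, reaching 1.33 ± 0.11 in bleomycin cells (adjusted p = 4.76e-05), and had 0.24 ± 0.09 in alisertib cells (adjusted p = 0.0531). SLC3A2, an amino acid transporter subunit that starts 119 bases from SNHG1, was not called against day-0 in any TIS group (0.77 ± 0.29 in ND-646 cells, adjusted p = 0.0627). ST6GALNAC2, which overlaps SNHG16 on the other strand, rose in TVB-3166 (2.98 ± 0.20, adjusted p = 1.1e-06) and ND-646 cells (2.405 ± 0.29, adjusted p = 0.000378), in which SNHG16 was not called. TRNAU1AP, which overlaps SNHG12, rose only in TVB-3166 (0.53 ± 0.11, adjusted p = 0.00174) and ND-646 cells (0.59 ± 0.18, adjusted p = 0.0323). DIPK1B, which overlaps SNHG7, rose in ND-646, bleomycin, palbociclib and alisertib cells and was also called in day-7 cells against day-0 (1.03 ± 0.18, adjusted p = 0.0474).

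Across the 24 libraries the hosts were not all alike. The log2 CPM of SNHG8 and ZFAS1 correlated at Pearson r = 0.93, of SNHG7 and ZFAS1 at 0.89 and of GAS5 and ZFAS1 at 0.88, whereas GAS5 and SNHG15 had r = -0.53 and SNHG6 and SNHG15 r = -0.69. These values describe libraries that share treatments and depth. Among 14068 other genes, the 5 whose log2 CPM was most like the mean profile of the 10 hosts (each centred and scaled) were BRF2 (r = 0.88), TAF1D (0.87), EPB41L4A-AS1 (0.87), SNHG32 (0.86) and CCNB1IP1 (0.86). TAF1D, EPB41L4A-AS1 and SNHG32 are themselves snoRNA hosts, and BRF2 encodes a subunit of an RNA polymerase III initiation factor. The 3 genes most like GAS5 alone were DUSP13 (r = 0.95), SLC41A3 (0.94) and STN1 (0.93).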

How the data were processed

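RNA-seq was performed on 24 SKBr3 libraries, sequenced as the authors describe on an Illumina instrument, and the deposited values are read counts per gene. Per the labels and the study's methods, reads were aligned by the authors with HISAT2 to GRCh37, assembled and counted with StringTie and tested with DESeq2, whose fold-changes and p-values were not used. The kit is named as an mRNA kit in one source and as a total RNA kit in the other, and the strand setting of the counting is not given in the sources used here. The label spelling of palbociclib differs from the spelling used here. Counts were between 29405121 and 44316330 per library, and the table has no 0, so a count of 1 may stand for none.

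The 10 hosts and all gene lists were chosen with earlier results of these data known. Genes were filtered with filterByExpr, normalized with TMM and tested with edgeR's quasi-likelihood test (edgeR 4.0.16, R 4.3.3) in the 6 libraries of each of 14 comparisons, with Benjamini-Hochberg adjustment over all genes tested. Pairs of groups were also compared in 1 fit of all 24 libraries (14078 genes). Levels are CPM on TMM-scaled library sizes, and log2 CPM for correlations used a prior count of 2. Scripts were tested on simulated data. Alternatives were DESeq2 1.42.0, RLE size factors, library totals, no filter on low counts, a minimum of 10 counts per library, the fit of all libraries, a replicate block, a rule of 2-fold with a raw p under 0.05, and leaving out each library.

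Same-numbered replicates deviated together (all 3 correlations of deviations from the group means above 0.1) in bleomycin against day-7 (0.107 to 0.142), alisertib against day-7 (0.105 to 0.218) and TVB-3166 against ND-646 (0.213 to 0.380). The numbers come from the labels, and the cut at 0.1, not the labels, set which comparisons were treated as paired. Doxorubicin against day-7 missed it narrowly (0.210, 0.0975 and 0.133), so a shared deviation in comparisons other than these 3 is not excluded. The main fits do not use this pairing, and results with the replicate block are given beside them. Named genes were the 10 hosts, up to 4 genes of each other list with the largest fold-change among those called against day-0, annotated neighbours that overlap a host or start within 2000 bases of it on the other strand, and the genes most correlated with the hosts. Start sequences and gene positions are from GENCODE on GRCh37 and hosted snoRNAs from the RefSeq gene table, which is on GRCh38 and was used only for which snoRNAs lie inside a host. One result on a neighbouring gene is not reported here.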

Additional observations from a re-analysis of the deposited data

Results flagged for a closer look

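SNHG15 was singled out because its change against the same day-0 cells went in opposite directions under different drugs, and the differences between those drugs were computed in the fit of all 24 libraries with edgeR. The pairs were picked from the same libraries, so these p-values are a description of the observed difference and no independent evidence of it. Palbociclib minus ND-646 was 1.15 on the log2 scale (SE 0.16, adjusted p = 9.15e-06), with all 3 palbociclib libraries above all 3 ND-646 libraries. Palbociclib minus bleomycin was 1.14 (SE 0.16, adjusted p = 1.97e-05). Alisertib minus ND-646 was 1.19 (SE 0.16, adjusted p = 4.91e-06), and alisertib minus bleomycin was 1.18 (SE 0.16, adjusted p = 9.75e-06). Dixon's outlier test was not applied, because all groups hold 3 libraries.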

How the results depend on the processing

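Of 57 called values of single hosts, refitted under 741 alternatives, 0 changed sign and 56 refits no longer passed the threshold, 45 of them with 1 library left out and 7 in the fit of all 24 libraries. DESeq2, RLE size factors and the minimum of 10 counts lost none. Among values that were not called, 45 of 1079 refits changed sign.

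Counts of called hosts moved by more than 1.5 times as follows, and the cause was not tested. For DESeq2, the replicate block, the fit of all libraries and the fits with 1 library left out, the shares of all genes called are not given. The rule of 2-fold with a raw p under 0.05 gave, against day-0, 2 for TVB-3166, 4 for bleomycin, 1 for doxorubicin, 4 for palbociclib and 2 for alisertib, and, against day-7, 1 for each of ND-646, TVB-3166, bleomycin, doxorubicin, palbociclib and alisertib. DESeq2 gave 4 for day-7 against day-0, 7 for bleomycin against day-7 and 1 for TVB-3166 against ND-646. The replicate block gave 4 for day-7 against day-0, 7 for bleomycin against day-7 and 6 for alisertib against day-7, and changed no other count by that much. Library totals without TMM gave 4 for ND-646 against day-7, and the fit of all libraries 5 for ND-646, 1 for doxorubicin and 0 for alisertib against day-7. Leaving out 1 library gave 2 to 7 for ND-646 against day-0, 4 to 6 for bleomycin against day-0, 3 to 5 for doxorubicin against day-0, 2 to 5 for ND-646 against day-7, 2 to 6 for TVB-3166 against day-7, 3 to 8 for bleomycin against day-7, 1 to 3 for doxorubicin against day-7, 2 to 4 for alisertib against day-7 and 0 to 1 for TVB-3166 against ND-646.

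With library totals, the genes called higher and lower against day-7 were 1451 and 3492 in ND-646 (2354 and 2338 with TMM), 2727 and 4349 in TVB-3166 (3492 and 3587) and 2174 and 4143 in bleomycin cells (3089 and 3205). For day-7 against day-0 they were 28 and 4 in place of 53 and 27, and for TVB-3166 against ND-646 they were 140 and 16 in place of 71 and 27. With 3 libraries a group, spread limits these tests, and for hosted snoRNAs counts near 1 limit any statement.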
